A study of Mus musculus with 29 samples.

Results

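The mouse genes with symbols of the form Zfp plus a number (zinc finger protein genes) were described in 2-cell embryos made by nuclear transfer. Members were chosen by level: a mean level of at least 10 CPM (counts scaled so that each library sums to 1000000 over its genes, without the ERCC spike-in RNAs) over 17 embryos, with Zfp57 and Zfp352 left out by name. Of 24448 gene rows, 337 had such a symbol, 332 of them had a count in at least 1 embryo, 167 lay below the threshold, and 168 were members. Just inside the threshold lay Zfp800 and Zfp58, both at 10.2 CPM, and Zfp689 at 10.3 CPM. Just outside lay Zfp383 at 9.87 CPM, Zfp652 at 9.85 CPM and Zfp61 at 9.80 CPM.

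Most genes with this symbol encode proteins that bind DNA through tandem C2H2 zinc fingers, small folds held by a zinc ion between a pair of cysteines and a pair of histidines. Many also carry a KRAB domain, which recruits the corepressor Trim28 (Kap1) and, with it, the histone methyltransferase Setdb1, to silence retrotransposons, imprinted regions and other genes, a role known from early mouse embryos and embryonic stem cells. A symbol, however, is a name and not a family: others among these genes encode activators, RNA-binding proteins, ribosome factors and ubiquitin ligases.

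Libraries (29 in all, from BDF1 mice) were made with Smart-seq2, which amplifies whole cDNAs and marks neither strand nor single molecules. In the 17 embryo libraries, an enucleated oocyte had received a donor nucleus from a cumulus cell, one of the somatic cells that nurse the oocyte. Activation then took 6 h in KSOM medium with 10 mM strontium, the agent labelled CB and EGTA. The 9 controls were cultured without hydroxyurea (HU, an inhibitor of ribonucleotide reductase) and 8 embryos with 10 uM HU, both allotted at random. HU was replaced by fresh medium after 24 h, and whole embryos were collected at the 2-cell stage, 28 h after activation. The other 12 libraries were single cumulus cells, the donor cell type. No label ties an embryo to a female or a day, so the p-values speak only of the spread among these 17 embryos. No animal is named for the cells either, which therefore count as 1 sample without a test.

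Gene counts per library ranged from 1801261 to 3472116 in controls, 2442541 to 3757492 in HU embryos and 317195 to 4051494 in cells. The number of genes with a count was 13875 to 15132 in controls, 12887 to 15421 in HU embryos and 4054 to 8629 in cells. Oocyte markers summed to 2980 to 6259 CPM in all embryos and to 0 to 74.1 CPM in the cells, where 8 of 14 had no count. Cumulus and granulosa markers summed to 282 to 4365 CPM in the cells, with all 15 detected in at least 1 cell, and to 28.0 to 143 CPM in the embryos. Rn45s, the ribosomal RNA precursor, took 49.3% to 86.6% of the gene counts in cells and 15.2% to 32.5% in embryos. An embryo library pools all cells of 1 embryo, so fewer cells and less RNA per cell cannot be told apart.

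Promoters are shown for the 3 members with the highest correlation with Sp110 across embryos and for the member with the lowest, since these carry the pattern described last. Each is the RefSeq sequence of GRCm38.p6 from 250 bases before to 50 bases after the first listed transcription start, 5′ to 3′ on the gene's strand. Capitals mark any of 6 motifs searched on both strands: CCAAT (bound by NF-Y), GGGCGG (by Sp and Klf factors), CCGGAAG (by ETS factors), GGATTA (by homeobox factors of the Obox type), AGGTCA (by nuclear receptors) and the TATA box TATAAA. Matches in the printed windows do not overlap.
Zfp791 (chr8:85123046-85123345, minus strand): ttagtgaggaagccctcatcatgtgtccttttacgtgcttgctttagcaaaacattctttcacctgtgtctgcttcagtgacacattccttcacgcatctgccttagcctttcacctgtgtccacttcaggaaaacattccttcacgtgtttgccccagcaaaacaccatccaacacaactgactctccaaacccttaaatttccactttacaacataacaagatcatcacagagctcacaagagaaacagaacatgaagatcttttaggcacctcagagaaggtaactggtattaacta
Zfp775 (chr6:48601757-48602056, plus strand): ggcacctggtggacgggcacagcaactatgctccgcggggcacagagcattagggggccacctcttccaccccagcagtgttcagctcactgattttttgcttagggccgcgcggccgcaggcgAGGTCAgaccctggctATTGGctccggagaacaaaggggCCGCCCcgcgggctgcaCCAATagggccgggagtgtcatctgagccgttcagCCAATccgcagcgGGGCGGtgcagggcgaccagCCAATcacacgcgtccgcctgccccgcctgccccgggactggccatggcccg
Zfp809 (chr9:22225453-22225752, plus strand): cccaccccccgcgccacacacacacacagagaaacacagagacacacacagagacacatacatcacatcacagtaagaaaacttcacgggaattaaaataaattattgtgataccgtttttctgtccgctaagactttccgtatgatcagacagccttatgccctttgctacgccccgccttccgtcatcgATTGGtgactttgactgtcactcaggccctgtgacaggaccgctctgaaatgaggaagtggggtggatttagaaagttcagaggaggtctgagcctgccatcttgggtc
Zfp326 (chr5:105876318-105876617, plus strand): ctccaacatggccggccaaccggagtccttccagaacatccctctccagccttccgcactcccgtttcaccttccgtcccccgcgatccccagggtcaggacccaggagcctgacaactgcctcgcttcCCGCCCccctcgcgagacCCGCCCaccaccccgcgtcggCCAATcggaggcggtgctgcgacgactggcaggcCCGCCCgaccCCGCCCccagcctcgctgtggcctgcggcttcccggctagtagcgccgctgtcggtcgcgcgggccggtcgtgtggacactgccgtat
The Zfp791 window held none of the motifs and 3 CpG dinucleotides at a GC content of 42.7%. The Zfp775 window held 4 CCAAT, 2 GGGCGG and 1 AGGTCA match with 24 CpGs at 68% GC, and that of Zfp809 1 CCAAT match with 11 CpGs at 49.3% GC. The window of Zfp326, the member with the lowest r, held 4 GGGCGG and 1 CCAAT match with 34 CpGs at 71.3% GC. None of the 6 motifs lay in all 3 windows of the positively correlated members. Of the members, 139 had a RefSeq promoter entry. CCAAT lay in 48.2% of these against 37.9% of all 27025 promoters of the same length, and GGGCGG in 54.7% against 35.9%. TATAAA lay in 4.32% of members against 14.2% of all. The median member window held 15 CpGs and the median of all windows 7. All 27025 promoters were taken at any level, whereas members were chosen by their level in embryos. The part of that choice in these differences was not tested. A match is a description of letters and not a bound site.

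By structure, the members were mostly multi-finger proteins. In GENCODE M21 on GRCm38, 167 of 168 were placed by symbol (Zfp191 was not) and 166 had a coding sequence, of which 162 encoded at least 1 match to a C2H2 pattern (Zfp839, Zfp957, Zfp703 and Zfp330 had none). The median was 10 fingers, the most 40, and 89 members had at least 10. A KRAB-like stretch was found in 77 members. The pattern behind it missed the known KRAB protein Zfp445, and false matches were not assessed, so the count can be off in both directions. Chromosome 7 held 38 members (20 of them KRAB-like), chromosome 17 held 21 (18 KRAB-like) and chromosome 8 held 17 (8 KRAB-like). With members joined when less than 250000 bases apart, the largest run was chr17:21423227-22071168 with 10 members, all KRAB-like (Zfp54, Zfp51, Zfp53, Zfp52, Zfp948, Zfp760, Zfp229, Zfp820, Zfp942 and Zfp943). The next, chr7:29816114-30134950, held 8 members, 6 of them KRAB-like. Such clusters are known to arise by duplication, and reads shared between near-identical copies could have been split between members or lost, since the counter is not given in the sources used here. In addition, 82 members overlap another annotated gene, 65 of them one on the other strand, and without strand information reads from both cannot be told apart.

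Levels spanned 2 orders of magnitude, and 1 small gene led them. Mean CPM over the 17 embryos, the value that chose the members, ran from 10.2 to 1305 with a median of 25.8, and 39 members reached 50 CPM while 59 lay under 20 CPM. Per length, in the deposited FPKM (counts scaled for depth and gene length), member means ran from 0.918 to 295 with a median of 7.03. Zfp706, a protein of 76 residues with 1 finger, is known from work on exit from the embryonic stem cell state. It stood first at 295 ± 56.5 FPKM (SD, n = 17) and made up 15.9% of the members' summed CPM. Second was Zfp296, a factor of pluripotent and germ cells, at 95 ± 45.3 FPKM. It was followed by Zfp957 at 84.1 ± 20.2, Zfp68, a KRAB gene, at 75.6 ± 12.7, and Zfp821 at 62.9 ± 35.9 FPKM. The step from Zfp706 to Zfp296 exceeded the spread between embryos, whereas each neighbouring pair among the other 4 differed by less than the larger of their SDs.

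The members also differed in how evenly embryos carried them. Across the 9 controls the coefficient of variation (SD over mean, in CPM) ran from 0.125 to 1.37 with a median of 0.469, against 0.394 for all 8958 tested genes at 10 CPM or more. The steadiest were Zfp592, a chromatin-associated factor, at 0.125, Zfp106, an RNA-binding protein, at 0.141 and Zfp68 at 0.15. Here and below, 3 values of a group are its lowest, median and highest embryo: Zfp592 measured 174, 216 and 253 CPM in the controls and 120.4, 209 and 254 CPM in the HU embryos. The most uneven were Zfp54 at 1.37, Zfp939 at 1.28 and Zfp791 at 1.2. Zfp54 measured 2.87, 7.69 and 83.8 CPM in the controls and 0.532, 23.7 and 41 CPM in the HU embryos, and Zfp939 measured 3.01, 7.29 and 48.9 CPM in the controls and 0.798, 12.4 and 20.6 CPM in the HU embryos. In both, the highest control stood far above the control median. Most members were present in all embryos, since 155 of 168 had a count in each of the 17 and the fewest was 13 embryos.

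No member passed the test between HU embryos and controls. All 168 members were among the 11476 genes tested with edgeR's quasi-likelihood F test, and 0 passed an adjusted p under 0.05, as did 0 of all genes (percent called 0). DESeq2's Wald test, run as an alternative, called 0 members and 3 genes in all. At an unadjusted p under 0.05, 5 members were higher in HU embryos (2.98% of members against 3.81% of all genes tested) and 3 were lower (1.79% against 2.04%). In both directions together these were 8 members, 4.76% against 5.85% of all genes, so the shares lay near the background. With ERCC scaling the split was 7 higher and 0 lower (4.17% and 0% of members, beside 5.48% and 0.235% of all genes). The median log2 fold change of the members was 0.013, with 86 of 168 above 0, beside 0.038 for all genes tested. No member had groups without overlap, and the share over all genes was not counted. The members' summed level was 8264 ± 833 CPM in controls (SD, n = 9) and 8192 ± 748 CPM in HU embryos (n = 8).

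The smallest p among members belonged to Zfp655, one of the abundant members. It measured 176, 256 and 297 CPM in the controls and 108, 174 and 225 CPM in the HU embryos. All 8 HU embryos lay below the control median and 4 below the lowest control, with group means of 250.0 ± 39.2 and 173 ± 44.5 CPM (log2 fold change -0.52, SE 0.17, unadjusted p = 0.00555, adjusted p = 0.829; edgeR). Zfp954, a KRAB gene, measured 8.91, 29.2 and 80.5 CPM in the controls and 5.59, 16.6 and 28.7 CPM in the HU embryos. Again all 8 HU embryos were below the control median and 2 below the lowest control (log2 fold change -1.08, SE 0.41, unadjusted p = 0.0146, adjusted p = 0.829). Zfp277, which is known to act with Polycomb complexes, measured 21.4, 37.5 and 60.4 CPM in the controls and 11.2, 20.1 and 42.3 CPM in the HU embryos; 1 HU embryo was above the control median and 5 were below the lowest control (log2 fold change -0.66, SE 0.28, unadjusted p = 0.0286, adjusted p = 0.829).

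In the other direction, Zfp771 measured 3.46, 8.35 and 16.8 CPM in the controls and 2.05, 18.9 and 45.8 CPM in the HU embryos. The HU embryos straddled the controls, 4 above the highest and 2 below the lowest (log2 fold change 1.24, SE 0.51, unadjusted p = 0.0242, adjusted p = 0.829). Zfp51, of the chromosome 17 cluster, measured 26.5, 57.2 and 119 CPM in the controls and 33.8, 86 and 174 CPM in the HU embryos, and 6 of 8 HU embryos exceeded the control median (log2 fold change 0.67, SE 0.31, unadjusted p = 0.0412, adjusted p = 0.829). Zfp668, which is known from work on DNA damage repair, measured 2.88, 11.5 and 25 CPM in the controls and 10.2, 16.2 and 31.9 CPM in the HU embryos, and its level passed the control median in 6 of the 8 (log2 fold change 0.81, SE 0.38, unadjusted p = 0.0418, adjusted p = 0.829); it overlaps Zfp646 on the other strand. Zfp386 and Zfp317, both KRAB genes named after their values were seen, were the remaining 2, at log2 fold changes of 0.63 (p = 0.044) and 0.74 (p = 0.0476) by edgeR before adjustment. None of these 8 values passed the adjustment.

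**Figure D1:**
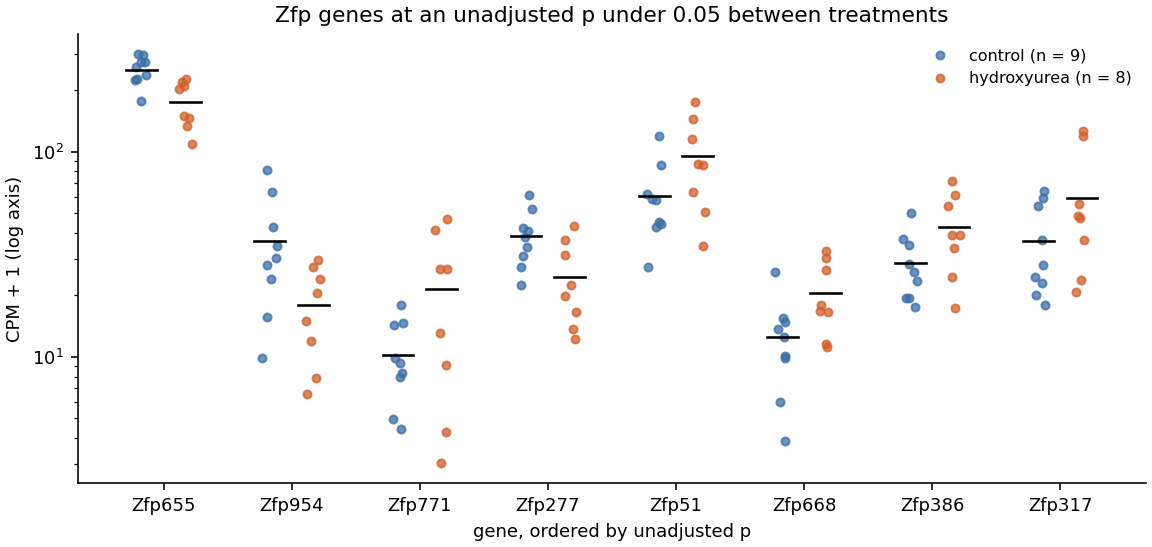
Level in CPM + 1 (log axis) of the 8 Zfp genes at an unadjusted p under 0.05 between treatments; each point is 1 embryo (9 controls in blue, 8 HU embryos in orange) and each bar the group mean. In every gene the groups overlap: for Zfp655 the HU embryos lie between 108 and 225 CPM and the controls between 176 and 297 CPM.

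By role, the repressors of repeats and imprints with a KRAB box were all 5 members, and none reached an unadjusted p under 0.05 between treatments. Zfp809, which silences proviruses through their primer binding site, stood at 60.7 ± 38.7 CPM in controls and 62 ± 44.3 in HU embryos (SD, n = 9 and n = 8). Zfp568, a repressor of a placental Igf2 transcript, stood at 85.2 ± 27.2 and 92.4 ± 36.8 CPM, and Zfp445, which protects imprints beside Zfp57, at 30.6 ± 14.1 and 30.2 ± 14.4 CPM. Zfp932, a repressor of endogenous retroviruses, measured 57 ± 17.3 and 42.8 ± 10.9 CPM, and Zfp708, which binds a retrotransposon, 15.3 ± 9.06 and 10 ± 5.54 CPM. For each of the 5, the difference between the means was smaller than the SD of the controls, which describes its size beside single embryos and is not a test.

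Of 5 early embryo and pluripotency factors, 4 were members (Zfp462 was not), and none reached an unadjusted p under 0.05 between treatments. Zfp42, the stem cell marker Rex1, measured 12.8, 21.1 and 39.1 CPM in the controls and 9.79, 23.1 and 43.7 CPM in the HU embryos. Zfp281, a regulator of Nanog, measured 44.3, 76.8 and 106 CPM in the controls and 47.9, 83.2 and 153 CPM in the HU embryos. In both genes the groups overlapped. Zfp706 measured 1115, 1449.7 and 1666 CPM in the controls and 868, 1173 and 1690.0 CPM in the HU embryos, with a log2 fold change of -0.16 (SE 0.15). Zfp296 is described with the correlations.

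Among 14 general transcription and chromatin factors, 12 were members (Zfp384 and Zfp827 were not), and among 7 RNA, spindle and ubiquitin factors, 6 were (Zfp36 was not); none of the 18 reached an unadjusted p under 0.05 between treatments. Zfp592, Zfp687 and Zfp532, known as partners in 1 chromatin complex, stood at 28.5, 6.1 and 10.3 FPKM. Zfp410, known as an activator of Chd4, stood at 6.34 FPKM, Zfp148, a binder of GC-rich promoters, at 8.78 FPKM, and Zfp451, a SUMO ligase, at 7.95 FPKM. In the second list, Zfp207, a spindle and kinetochore protein, stood at 29.2 FPKM, Zfp106 at 30.8 FPKM and Zfp598, the ubiquitin ligase of collided ribosomes, at 19.9 FPKM. Zfp91, a ubiquitin ligase, and Zfp638, an RNA-associated nuclear protein, were lower at 7.47 and 6.32 FPKM. The 18 genes of the KRAB corepressor machinery, none of them members, were all tested: 0 passed between treatments and 1, the chromatin remodeller Chd3, reached an unadjusted p under 0.05 by edgeR (log2 fold change 1.04, p = 0.011). Of all genes tested, 5.85% reached that level. Trim28, the corepressor itself, stood at 94.8 ± 35.6 CPM in controls and 102 ± 21.7 CPM in HU embryos.

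Against the donor cell type, the members as chosen were mostly higher in embryos. The counts of the 12 cumulus cells were summed (24058974 gene counts) and compared with the mean of the 9 controls, with 1 CPM added to each. Of the 168 members, 86 were at least 4-fold lower in the cells and 2, Zfp53 and Zfp52, at least 4-fold higher; of all 8970 genes at 10 CPM or more in embryos the shares were 42.3% and 2.91%. The median log2 ratio of cells over controls was -2.03 for the members and -1.58 for those 8970 genes. Since members were chosen by their level in embryos, part of this direction is set by the choice. With Rn45s left out of library sizes, an alternative chosen after seeing the data, 56 members were at least 4-fold lower and 4 higher, now also Zfp637 and Zfp771 (30.8% and 7.75% of genes), and the medians were -1.27 for members and -0.72 for all. Detection in single cells was sparse: 13 members had no count in the cells, 42 had counts in 1 to 3 cells, 4 (Zfp207, Zfp706, Zfp251 and Zfp52) in all 12, and in 69 members 1 cell held over 50% of the counts.

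The 13 members without a count in the cells included 2 of the 4 early embryo factors, Zfp296 and Zfp42. The share of all genes without a count there was not computed. Zfp296 had 0 counts in the cells, and with a floor of 3 counts over all 12 cells it was at least 1081-fold higher in the controls, which measured 135 ± 47.1 CPM (SD, n = 9). Zfp42, also without a count, was at least 177-fold higher in the controls. Zfp92, an X-linked KRAB gene, and Zfp108 had 0 counts as well and were at least 279.9-fold and 284-fold higher. Zfp957 summed to 2.16 CPM (95% interval 1.61 to 2.83, 2 of 12 cells with a count) against 248 ± 42.4 CPM in the controls, a log2 ratio of -6.30. Zfp821 summed to 2.04 CPM (95% interval 1.51 to 2.69, 2 of 12 cells with a count) and Zfp820 to 0.249 CPM (95% interval 0.0915 to 0.543, 1 of 12 cells with a count), at log2 ratios of -5.45 and -5.67. With Rn45s left out of library sizes the bounds for Zfp296, Zfp42, Zfp92 and Zfp108 were 569-fold, 93.3-fold, 147-fold and 149-fold. These intervals and bounds cover counting error only; the intervals are exact Poisson.

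Leaving Rn45s out of library sizes shifted the members' log2 ratios of cells over controls up by a median of 0.81. With Rn45s kept in, a smaller set was higher in the cells, 16 members in all, and the share over all genes was not counted. Zfp53 and Zfp52, neighbours in the chromosome 17 cluster, led it: Zfp53 summed to 57.4 CPM (95% interval 54.4 to 60.5, 11 of 12 cells with a count) against 12 ± 9.63 CPM in the controls, and Zfp52 to 54.7 CPM (95% interval 51.7 to 57.7, 12 of 12 cells with a count) against 12.1 ± 6.65 CPM. Their log2 ratios were 2.16 and 2.08. The other 8 members of the cluster were all lower in the cells, from -1.32 for Zfp948 to -5.67 for Zfp820. Zfp771, Zfp637, Zfp949 and Zfp251 followed at 1.17, 1.12, 0.76 and 0.76; by the median of the cells in place of their sum, Zfp949 stood at -0.045. Zfp445 stood at 36.5 CPM (95% interval 34.1 to 38.9, 11 of 12 cells with a count) in the cells and 30.6 ± 14.1 CPM in the controls, and Zfp809 at 16.1 CPM (95% interval 14.5 to 17.8, 6 of 12 cells with a count) and 60.7 ± 38.7 CPM, so both repressors had counts in cells and embryos. Zfp706, first in the embryos, summed to 135 CPM (95% interval 130.4 to 139.7, 12 of 12 cells with a count), a log2 ratio of -3.35.

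**Figure D2:**
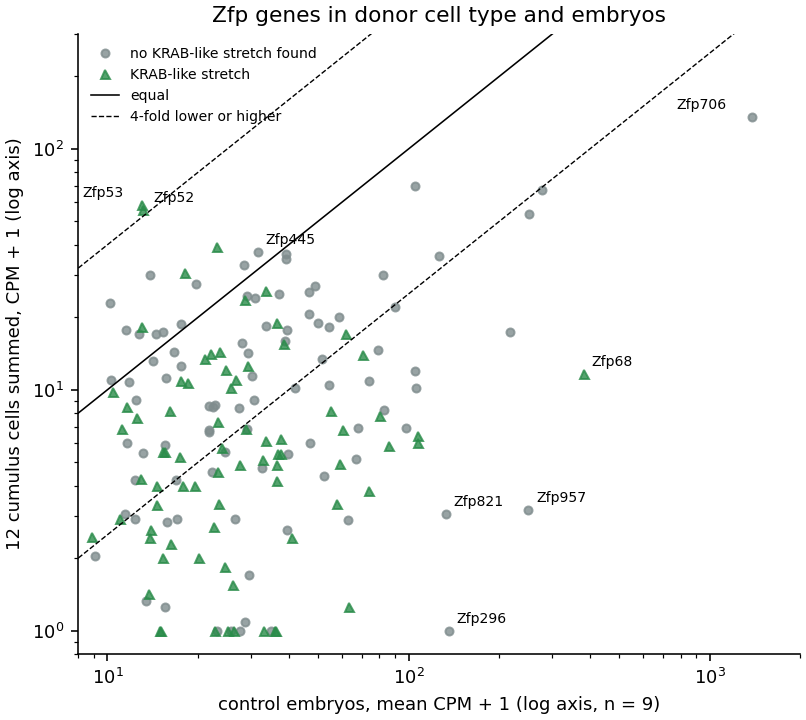
Each point is 1 of the 168 Zfp genes, with its mean level in 9 control embryos on the x axis and its level in 12 summed cumulus cells on the y axis, both in CPM + 1 on log axes; triangles have a KRAB-like stretch, and the lines mark equality (solid) and 4-fold (dashed). Zfp53 and Zfp52 lie above the upper dashed line, 86 genes lie below the lower one, and Zfp296 sits at 0 counts in the cells.

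The embryos differed strongly in Sp110, which encodes a nuclear body protein of the SP100 family, and in AF067063, and the members were compared with both genes across the 17 embryos. Sp110 measured 92.6, 155 and 1252 CPM in the controls and 69.2, 439 and 1938 CPM in the HU embryos; the highest embryos were HU 7, control 3 and HU 5 and the lowest HU 6, HU 8 and control 1. AF067063 measured 43.9, 59.5 and 547 CPM in the controls and 20.9, 150.0 and 702 CPM in the HU embryos, and both genes gave a continuous range without a gap over 0.4 of its width. They correlated with each other at r = 0.89 (rho = 0.81, adjusted permutation p = 0.00016 over 16 relations), so values for one are not separate evidence beside the other. Both also ran against the number of detected genes per embryo (r = -0.62, rho = -0.62, adjusted p = 0.0261 for Sp110, and r = -0.77, rho = -0.69, adjusted p = 0.0008 for AF067063, permutation tests), and the part of library complexity in what follows was not tested. Without the 2 embryos farthest from the median of each marker, these 2 values were -0.53 and -0.60. Gene counts, ERCC counts and the Rn45s share showed no relation that passed.

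Of the 168 members, 15 correlated positively and 5 negatively with Sp110 (Pearson r of log2(CPM + 1) with TMM scaling, permutation test, adjusted over all genes and both markers). These are 8.93% and 2.98% of the members, beside 7.42% and 4.23% of all 11475 genes tested. Members were chosen at 10 CPM or more, and of the 8958 tested genes at that level 806 were positive and 409 negative. Against these the positive share of the members was not higher. Their lower negative share rested on 5 members and was not tested. With AF067063, 16 were positive and 4 negative (9.52% and 2.38% of members, beside 6.63% and 3.65% of genes). Of the 8958 genes at the members' level, 721 were positive and 334 negative with AF067063. The median r of the members was 0.037 with Sp110 and 0.010 with AF067063, against -0.049 and -0.051 for all genes. For the 8958 genes at the members' level it was -0.016 and -0.012. In a second fit, an edgeR slope on the marker with treatment as covariate, 17 members were positive and 2 negative with Sp110 (7.84% and 2.55% of genes), and 14 and 2 with AF067063 (7.05% and 2.02%). With ERCC scaling the split with Sp110 was 16 positive and 0 negative (9.52% and 0% of members, beside 6.76% and 0.444% of genes), and without TMM the split with AF067063 was 12 positive and 7 negative (7.14% and 4.17%, beside 5.21% and 6.28%). The negative share moved in the same direction in the members and in all genes under both scalings.

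**Figure D3:**
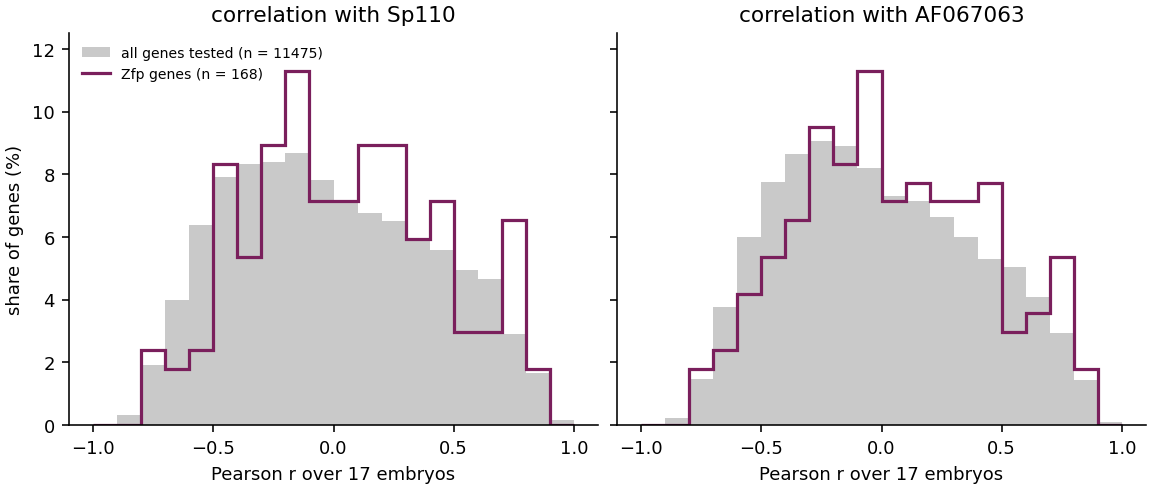
Share of genes (y axis, %) by Pearson r over 17 embryos (x axis, steps of 0.1) with Sp110 (left) and AF067063 (right), for 11475 genes tested in grey and the 168 Zfp genes as a line. The line follows the grey area, with medians of 0.037 and 0.010 against -0.049 and -0.051.

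Individual members followed Sp110 closely. Zfp791, a KRAB gene with 15 fingers (chr8:85108553-85123095, minus strand), measured 2.59, 7.29 and 54.4 CPM in the controls and 1.64, 16.4 and 33.5 CPM in the HU embryos. It was highest in control 3 (54.4 CPM), HU 4 (33.5) and HU 7 (30.5) and lowest in HU 8 (1.64) and HU 6 (1.86), where Sp110 was 1252, 968, 1938, 90.5 and 69.2 CPM. Its r with Sp110 was 0.89 (rho = 0.87, adjusted permutation p = 0.0027 for r and 0.00499 for rho), 0.86 without the 2 embryos farthest from the median, and 0.84 and 0.96 within controls and HU embryos (exact permutation p = 0.0115 and 0.000372, unadjusted). Of the 4 promoter windows printed, that of this gene had the fewest CpGs.

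Zfp775, with 11 fingers and no KRAB-like stretch (chr6:48602063-48623227, plus strand), measured 12.1, 43.5 and 149 CPM in the controls and 11.1, 99.7 and 218 CPM in the HU embryos. All of HU 3, HU 4, HU 5, HU 7 and control 3 lay at 130.1 CPM or more and the other 12 embryos at 69.2 CPM or less. Its r with Sp110 was 0.88 (rho 0.87, adjusted permutation p = 0.0027 and 0.00612), 0.87 without the 2 farthest embryos, 0.85 within controls and 0.90 within HU embryos. The retrovirus repressor Zfp809, with 7 fingers (chr9:22225714-22243354, plus strand), measured 29.3, 48.6 and 155 CPM in the controls and 11.2, 55.5 and 138 CPM in the HU embryos. It peaked in control 3 (155 CPM) and HU 7 (138 CPM) and was lowest in HU 6 (11.2 CPM), with r = 0.80 (rho 0.81, adjusted permutation p = 0.00473 and 0.0121), 0.67 without the 2 farthest, and 0.80 and 0.88 within the treatments. It was the 1 member of the 5 repeat and imprint repressors to be called; Zfp568, Zfp445, Zfp708 and Zfp932 had r of 0.10, 0.38, 0.22 and -0.046.

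The KRAB gene Zfp707 measured 20, 57.5 and 274 CPM in the controls and 15.7, 129.6 and 267 CPM in the HU embryos, with r = 0.80 (rho = 0.82, adjusted p = 0.00804 for r and 0.012 for rho, r = 0.76 without the 2 farthest embryos) by permutation, and 0.67 and 0.86 within controls and HU embryos. Zfp143, an activator that binds promoters and chromatin loop anchors, measured 33, 60.3 and 126 CPM in the controls and 39.4, 68.6 and 146 CPM in the HU embryos, with r = 0.77 (rho = 0.69, adjusted p = 0.0112 for r and 0.0459 for rho, r = 0.66 without the 2 farthest embryos), and 0.64 and 0.87 within the treatments. Zfp296, the pluripotency factor without a count in the cells, gave r = 0.73 (rho = 0.69, adjusted p = 0.0179 for r and 0.049 for rho, r = 0.81 without the 2 farthest embryos) with Sp110 and the highest value of all members with AF067063, r = 0.86 (rho = 0.66, adjusted p = 0.00393 for r and 0.0639 for rho, r = 0.73 without the 2 farthest embryos). It measured 101, 127 and 254 CPM in the controls and 66.3, 114 and 328 CPM in the HU embryos, and was highest in HU 4, control 3 and HU 5, at 328, 254 and 248 CPM. In HU 7, where Sp110 peaked, it was 120.0 CPM, inside the range of the remaining embryos. Zfp296 overlaps Gemin7 on the other strand.

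The other 9 positive members, named after their values were seen because they passed, had r from 0.65 to 0.74: Zfp263, Zfp574, Zfp292, Zfp821, Zfp553, Zfp1, Zfp622, Zfp647 and Zfp335. Zfp622, a factor of large ribosomal subunit maturation, ran from 12.2 to 271 CPM over the embryos and gave r = 0.71 (rho = 0.73, adjusted p = 0.0224 for r and 0.0303 for rho, r = 0.77 without the 2 farthest embryos) by permutation. Zfp335, a subunit of histone H3K4 methyltransferase complexes, was the weakest, with r = 0.65 (rho = 0.42, adjusted p = 0.0461 for r and 0.286 for rho, r = 0.34 without the 2 farthest embryos) by permutation and 0.37 within controls, so its value rests on those embryos; it overlaps Pcif1 on the other strand. Zfp292, with no count in 2 embryos, ran from 0 to 39.9 CPM. Of the 15, 5 had a KRAB-like stretch, and 8 were at least 4-fold lower in the cells, beside 77 and 86 of all 168 members. Within treatments, r was above 0 in both groups for 15 of 15 and above 0.5 in both for 13 of 15, which is partly set by their choice over the same embryos.

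**Figure D4:**
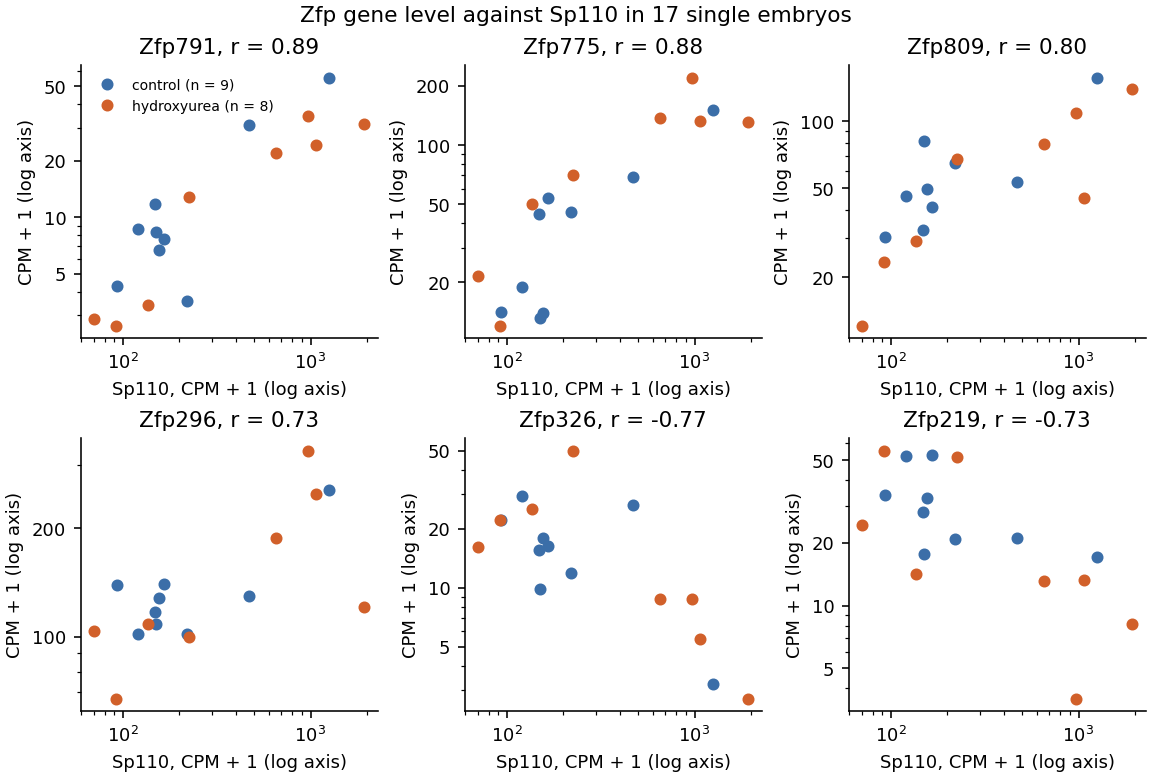
Level of 6 Zfp genes (y axis) against Sp110 (x axis), both in CPM + 1 on log axes, in 9 control (blue) and 8 HU embryos (orange), with Pearson r over all 17. Zfp791, Zfp775, Zfp809 and Zfp296 rise with Sp110 at r of 0.89, 0.88, 0.80 and 0.73, and Zfp326 and Zfp219 fall at -0.77 and -0.73, with both treatments along the same course.

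On the negative side stood Zfp326, Zfp92, Zfp219, Zfp944 and Zfp942. Zfp326, a subunit of the complex that couples RNA polymerase II elongation to splicing (chr5:105876565-105915818, plus strand), measured 2.22, 15.3 and 28.6 CPM in the controls and 1.73, 11.5 and 49.1 CPM in the HU embryos. It was lowest in HU 7 (1.73 CPM), control 3 (2.22) and HU 5 (4.47), the 3 embryos with the highest Sp110. Its r was -0.77 with an adjusted permutation p of 0.0119, whereas its rho of -0.66 had an adjusted p of 0.0609. Without the 2 farthest embryos r was -0.58, and it was -0.71 and -0.81 within controls and HU embryos. Zfp92 measured 10.5, 35.6 and 56 CPM in the controls and 15, 22.8 and 40.5 CPM in the HU embryos and gave r = -0.76 (rho = -0.66, adjusted p = 0.0134 for r and 0.0617 for rho, r = -0.64 without the 2 farthest embryos) by permutation. Zfp219, a transcription factor, measured 16.1, 27.1 and 51.8 CPM in the controls and 2.58, 12.7 and 54.5 CPM in the HU embryos and gave r = -0.73 (rho = -0.66, adjusted p = 0.0173 for r and 0.0621 for rho, r = -0.75 without the 2 farthest embryos). Zfp219 overlaps Arhgef40 and Tmem253 on the other strand. Zfp944 and Zfp942, KRAB genes of chromosome 17, gave r = -0.72 (rho = -0.60, adjusted p = 0.0251 for r and 0.0992 for rho, r = -0.57 without the 2 farthest embryos) and r = -0.65 (rho = -0.50, adjusted p = 0.047 for r and 0.192 for rho, r = -0.60 without the 2 farthest embryos) by permutation. All 5 had r below 0 in both treatments, which is partly set by their choice over the same embryos. Only Zfp326 and Zfp219 also passed in the edgeR slope fit, at adjusted p of 0.0235 and 0.0146.

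With AF067063, Zfp296 was followed by Zfp775 at r = 0.85 (rho = 0.76, adjusted p = 0.00356 for r and 0.0245 for rho, r = 0.79 without the 2 farthest embryos) and Zfp707 at r = 0.83 (rho = 0.84, adjusted p = 0.00443 for r and 0.0107 for rho, r = 0.73 without the 2 farthest embryos) by permutation. Zfp791 and Zfp809 gave r of 0.80 and 0.77, and 0.69 and 0.66 without the 2 farthest embryos. Zfp131, Zfp217, Zfp623 and Zfp868, which did not pass with Sp110, gave 0.69, 0.77, 0.66 and 0.71, and 0.46, 0.55, 0.65 and 0.49 without the 2 farthest embryos; the difference between the markers was not tested. Zfp131, a transcription factor with a BTB domain, lies 37072 bases from AF067063 on chromosome 13, and Zfp217 encodes a corepressor-binding oncoprotein. The lowest values belonged to Zfp326 at -0.79 and Zfp219 at -0.78, followed by Zfp92 at -0.78 and Zfp82 at -0.66. All 16 positive members had r above 0 in both treatments and 14 had r above 0.5 in both, which is again partly set by their choice.

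**Figure D5:**
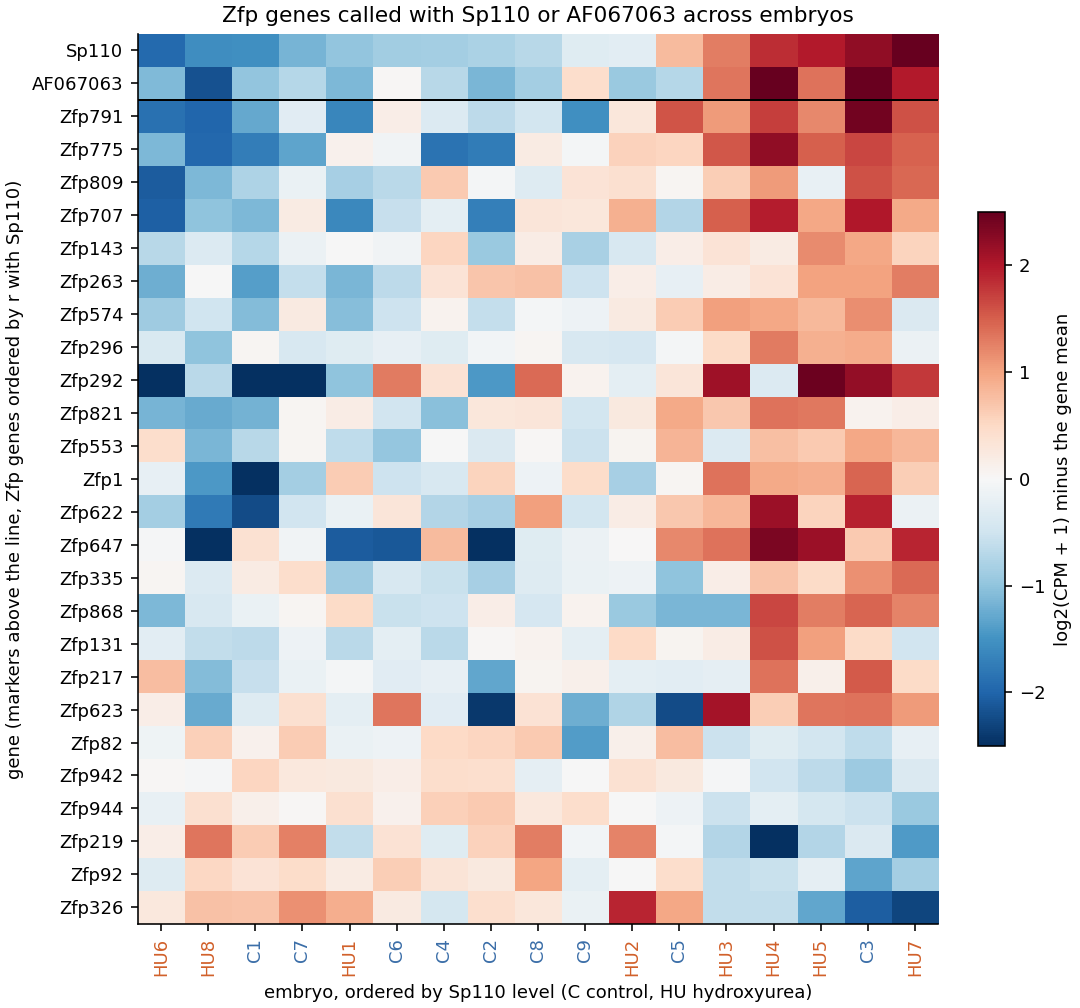
Level of the 25 Zfp genes that passed with Sp110 or AF067063 (rows, ordered by r with Sp110) in 17 embryos (columns, ordered by Sp110; C control, HU hydroxyurea), as log2(CPM + 1) minus the gene's mean, with both markers in the upper 2 rows. Zfp791, Zfp775 and Zfp707 are high in HU 3, HU 4, HU 5, control 3 and HU 7, and Zfp326 is low in the same 5 embryos.

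Within single treatments no member was called. Exact permutation tests within the 9 controls and within the 8 HU embryos called 0 members after adjustment over all genes, while 24 and 25 members reached an unadjusted p under 0.05 with Sp110 (14.3% and 14.9%, beside 10.1% and 18.1% of all genes), and 20 and 27 with AF067063 (11.9% and 16.1%, beside 10.8% and 17.2%). By edgeR's interaction term no slope was called as different between treatments, with 0 members and 0 genes (percent called 0), and 9 members with Sp110 (5.36%, beside 2.59% of all genes) and 6 with AF067063 (3.57%, beside 3.63%) reached an unadjusted p under 0.05. Leaving out 1 embryo at a time, the number of positive members in the edgeR slope fit with Sp110 ran from 8 without control 3 (4.76%, beside 4.32% of all genes) to 18 without HU 3 (10.7%, beside 7.73%), with 9 without HU 8 (5.36%, beside 5.05%). With AF067063 it ran from 7 without control 3 (4.17%, beside 3.7%) to 16 without control 5 (9.52%, beside 6.71%), with 10 without HU 8 (5.95%, beside 4.81%). The counts over all genes were lowest without control 3 too. Zfp791, Zfp775, Zfp809, Zfp707, Zfp622, Zfp574 and Zfp296 were called with Sp110 in all 17 of these fits. The share of all genes called in all 17 was not computed, and the fits share most of their embryos.

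The members did not move as 1 block. Over all 14028 pairs of members the median r across embryos was 0.0094, with 4.30% of pairs above 0.5 and 3.14% below -0.5, beside a median of -0.0032, 5.04% and 4.36% for all pairs of tested genes at 10 CPM or more. Between members of the same chromosomal run (119 pairs) the median was 0.16, and 0.15 in the chromosome 17 cluster. These pairs share libraries and, in clusters, possibly reads. No relation of the members' summed level to Sp110 passed (r = 0.35, rho = 0.37, adjusted permutation p = 0.517 for r and 0.454 for rho). Of the 18 corepressor genes, 3 were positive with Sp110 and 2 negative by permutation, beside 7.42% and 4.23% of all genes tested. Atf7ip, the partner of Setdb1, gave r = 0.79 (rho = 0.71, adjusted p = 0.00745 for r and 0.0381 for rho, r = 0.75 without the 2 farthest embryos). Cbx5, the heterochromatin protein HP1 alpha, gave r = 0.75 (rho = 0.61, adjusted p = 0.0171 for r and 0.091 for rho, r = 0.66 without the 2 farthest embryos), and Hdac1, a histone deacetylase, r = 0.71 (rho = 0.66, adjusted p = 0.0195 for r and 0.0634 for rho, r = 0.59 without the 2 farthest embryos). Dnmt3l and Dnmt3b, of the de novo DNA methylation machinery, gave r = -0.68 (rho = -0.75, adjusted p = 0.0366 for r and 0.0261 for rho, r = -0.71 without the 2 farthest embryos) and r = -0.63 (rho = -0.67, adjusted p = 0.0414 for r and 0.0544 for rho, r = -0.61 without the 2 farthest embryos). Within controls and HU embryos, r was 0.29 and 0.95 for Atf7ip, 0.46 and 0.86 for Cbx5, and 0.78 and 0.77 for Hdac1. It was -0.70 and -0.78 for Dnmt3l and -0.58 and -0.77 for Dnmt3b. Trim28 and Setdb1 gave r of 0.33 and 0.19 over all 17 embryos and did not pass.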

How the data were processed

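RNA was measured in 9 control embryos, 8 HU embryos and 12 cumulus cells. The authors deposited raw counts per gene (24540 rows, 92 of them ERCC) and matching FPKM. Tools named, per the submitters' processing notes, were STAR 2.7.3a (mm10), R 4.0.2 and FastQC, whereas the counter, its annotation and its strandedness were not given in the sources used here. Deposited FPKM equalled the counts divided by library sum and length for all 18588 genes checked (tolerance 0.001). Gene models are from GENCODE M21.

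Library sizes exclude ERCC rows. HU was compared with control by edgeR 4.0.16 in R 4.3.3 (TMM, filterByExpr, quasi-likelihood F test, Benjamini-Hochberg, threshold 0.05; SE from the F statistic); DESeq2 1.42.0 was an alternative. Levels printed are plain CPM. Correlations used log2(TMM CPM + 1) computed from the deposited counts, 100000 permutations, and adjustment over both markers and all genes; within treatments they were exact. Cell sums carry exact Poisson intervals at 95%. Procedures were tested on simulated data. Alternatives were scaling, filter, pseudocount, rank correlation, a replicate block and leaving out each library.

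Members, markers and lists were chosen with earlier results of these data known. Members are named by rule: the 8 highest means; 3 smallest p per direction; 5 highest and lowest r with Sp110 and 2 with AF067063; 6 largest cell ratios each way; 3 highest and lowest coefficients of variation; 3 at each side of the threshold; and the role lists. KRAB and motif patterns were chosen after seeing the data.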

Additional observations from a re-analysis of the deposited data

Results flagged for a closer look

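For 55 named members and the 2 markers, the highest and lowest embryo of each treatment were compared with the others on the log2 scale by Dixon's rule in 114 groups, and 11 embryos stood apart. Chance flags about 5% of such groups. Members named for uneven levels or for a high or low r can hold such embryos by choice, so the 11 cannot be set against that rate. Control 3 accounted for 5 of the 11: Zfp296 was highest there at 254 CPM (median of the controls 127) and Zfp939 at 48.9 CPM (median 7.29), whereas Zfp326 was lowest at 2.22 CPM (median 15.3), Zfp92 at 10.5 CPM (median 35.6) and Zfp52 at 1.67 CPM (median 9.39). Zfp52 was also apart in HU 3, with 0 CPM. Single controls were low for Zfp251 (control 2, 0 CPM), Zfp53 (control 4, 0 CPM) and Zfp148 (control 7, 48.8 CPM, median 89.6). Control 2 was high for Zfp532 at 90.3 CPM (median 51.2), and control 1 for Zfp687 at 56 CPM (median 24.8).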

How the results depend on the processing

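At a mean of at least 20 CPM, 109 genes would be members. The count of 0 members called between treatments held in every alternative run, leaving out each embryo included. At an unadjusted p under 0.05, 0 members were higher and 0 lower with all 3 groups in one fit (42 and 18 of all 11924 genes). With the replicate block 0 were higher and 4 lower (295 and 241 of all 11476 genes). Replicate numbers did not pair the samples (8 pairs, correlations -0.10 to 0.19, 0 controls closest to their own number). ERCC scaling, which moved the median of all genes to 0.19 and of the members to 0.20, gave 7 higher and 0 lower (629 and 27 of all 11476 genes). DESeq2's Wald test gave 7 and 5 (645 and 380 of all 19499 genes). Without single embryos, higher members numbered 0 (without HU 5, beside 282 of all 11691 genes) to 10 (without HU 8, beside 537 of 11616). Lower members numbered 2 (without control 2, beside 204 of 11322) to 6 (without control 3, beside 290 of 11367).

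With Sp110, negative members numbered 1 by Spearman rho, 0 with ERCC scaling, 2 after centring within treatment and 2 in the edgeR slope fit. Beside these stood 284, 51, 238 and 293 of all 11475 genes. The slope fit without single embryos gave 8 to 18 positive and 1 to 3 negative. Without the 2 farthest embryos (chosen after seeing the data) it gave 9 and 0, beside 429 and 81 of all 11615 genes. With AF067063, positive members numbered 7 by rho and 9 after centring, beside 407 and 484 of all 11475 genes. Negative members numbered 2 by rho, 7 without TMM, 2 with ERCC scaling and 2 in the slope fit, beside 168, 721, 157 and 232. The slope fit gave 7 to 16 and 1 to 3 without single embryos. Without the 2 farthest it gave 2 and 0, beside 202 and 32 of all 11605 genes. Against cells, 4-fold higher and lower members numbered 4 and 56 without Rn45s (695 and 2761 of 8969 genes at 10 CPM or more in embryos). By FPKM 0 were higher and 63 lower (232 and 3231 of 8970), and by the median of cells 0 and 134 (215 and 5322 of 8970). Leaving out single cells gave 1 to 2 higher and 81 to 87 lower. Of 23 members named against the cells, the direction changed for Zfp949, at a log2 ratio of -0.045 by the median of cells. It also changed for Zfp445, which ran from -0.094 (without cell 11) to 0.42 without single cells. The size of the ratios changed more widely, with a median shift of 0.81 over all members without Rn45s. No direction was reversed for the 25 members called with a marker or the 8 at an unadjusted p under 0.05 between treatments. This is partly set by their choice over the same embryos. Of the 25, 8 no longer passed with Sp110 by rho, and 11 no longer passed with AF067063. The causes of these changes were not tested. The median member had a count in 5 of 12 cells, and the part of depth in this was not tested.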
